A study of Rattus norvegicus with 9 samples.

Results

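Carbon tetrachloride (CCl4) fibrosis was examined in rat liver by comparing 3 arrays labelled as CCl4-treated with 3 labelled as vehicle-treated, so 6 of the 9 arrays of the series enter the comparison. CCl4 samples are labelled replicates 1, 2 and 3 and vehicle samples replicates 3, 4 and 5, all from male Sprague-Dawley rats. CCl4 was given by intraperitoneal injection in a mix with olive oil; the composition of the vehicle, the age of the rats and how these samples were picked for the arrays are not given in the sources used here. The remaining 3 arrays came from CCl4 rats that also received rottlerin, an activator of large-conductance potassium (BK) channels. They served here in estimating the spread between samples, in picking the brightest probe set of each gene and in checks that span all 9 arrays. Every array measured RNA from whole liver tissue on an Affymetrix expression array, and values are log2 MAS5 signals, which were scaled to the same trimmed mean on every array. Control probe sets were left out, which left 31042 probe sets that read 14377 genes, each gene taken by its brightest probe set. Of these genes, 10510 were called present by the MAS5 detection call on at least 1 of the 6 arrays.

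CCl4 is converted to a reactive radical by cytochrome P450 2E1 in hepatocytes around the central vein, and repeated injury there leads to scarring. Hepatic stellate cells, which store vitamin A when quiescent, turn into contractile, collagen-secreting myofibroblasts, and macrophages drawn to the scar clear debris, remodel matrix and secrete signals that keep the myofibroblasts active. In whole tissue, more cells of a type and more RNA per cell cannot be told apart, and the same holds for falls.

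CCl4 array 3 stood apart from the others. It called 12714 probe sets present against 15550 to 16849 on the 5 other arrays of the comparison. Among 10087 probe sets called absent on the 8 other arrays of the series its median log2 signal was 5.72, while those arrays lay between 4.09 and 4.59. Among the 11231 probe sets present on all 9 arrays its median was 9.53, inside the range of 9.51 to 9.58. Its raised background therefore lies mostly at low signals, and the values without it are given beside the groups below. The tissue label held up: albumin and the other 5 hepatocyte markers were present on all 6 arrays, at log2 signals between 14.04 and 15.28. The 3 measured skeletal muscle markers were present on none. Of the pancreas, kidney and adipose markers, 1 each was present on some array (Cela1, Slc34a1 and Adipoq), Slc34a1 on 2 vehicle and 2 CCl4 arrays. The summed hepatocyte marker signal was 123961 on CCl4 array 3, against 181323 and 192339 on CCl4 arrays 1 and 2, so that array also differed among bright genes.

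Across all genes, 233 differed between CCl4 and vehicle by at least 1.5-fold at an adjusted p below 0.05, which is 1.62% of those tested, in a limma fit whose prior spread follows the signal. Of these, 157 (1.09%) rose and 76 (0.529%) fell. Median log2 differences were 1.31 for the rises and -0.89 for the falls. These sizes are not comparable, since 30 of the risen genes and 0 of the fallen were absent on every vehicle array. Dim probe sets vary more and need a larger difference to be called. The balance of directions depended on the setting. Called probe sets were 215 higher and 133 lower in this fit, and 15 and 13 with each array centred on its median. They were 70 and 66 without CCl4 array 2, and 24 and 5 without vehicle array 4. The test is sensitive to the model: with 1 prior spread for all probe sets, limma called none of the 31042 probe sets (3181 at an unadjusted p below 0.05 and 1.5-fold), against 348 (1.12%) in the fit used here. Without CCl4 array 3, 204 genes (1.42%) were called; 93 of the 157 and 39 of the 76 remained called, and all 233 kept their direction. Leaving out vehicle array 3, 4 or 5 gave 211, 29 or 87 called probe sets, and leaving out CCl4 array 1 or 2 gave 843 or 136. Whichever of the 6 arrays was left out, 17 higher genes and 1 lower gene, Dmgdh, were called.

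**Figure D1:**
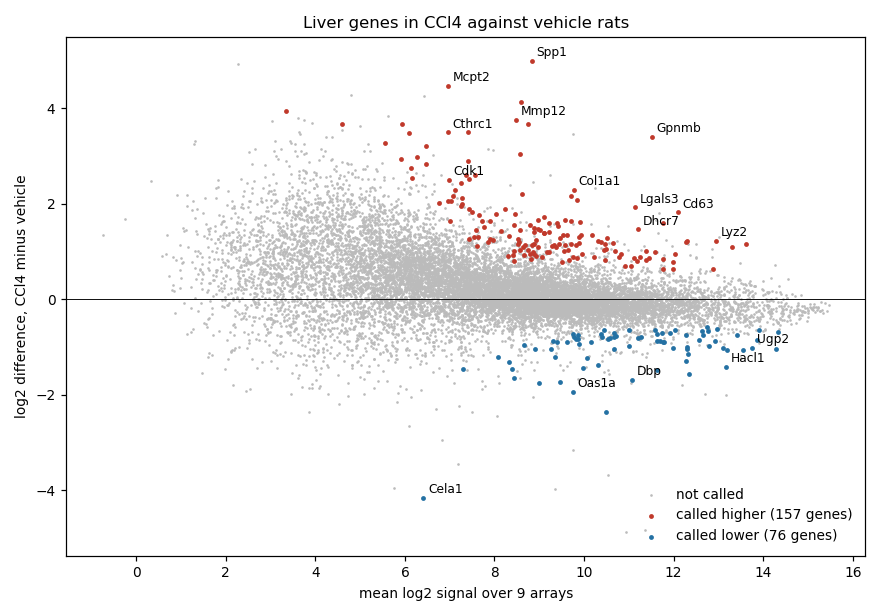
The mean log2 signal of each gene over 9 arrays (x axis) against its log2 difference between CCl4 and vehicle (y axis), with one point per gene, 157 genes called higher in red and 76 called lower in blue. Called rises reach into dim genes, and Spp1 at 5.00 is the highest named point, while called falls lie mostly among brighter genes.

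Some collagen genes rose. Among 18 listed collagen genes, 17 were measured and 15 were present on some array. Of those measured, 6 rose and none fell (1.09% and 0.529% of all genes). The median difference of the list was 1.05 (1.20 without CCl4 array 3) beside 0.13 (0.03) for all genes. Col1a1, which encodes the main chain of the fibril that fills the scar, had log2 signals of 8.81, 7.77 and 7.69 in vehicle livers and 9.97, 10.57 and 10.61 in CCl4 livers. The groups did not overlap, and Col1a1 rose 4.89-fold (log2 difference 2.29 ± 0.29 SE, adjusted p = 0.00502), a call that held without each of the 6 arrays in turn. Its partner chain Col1a2 read 11.20, 9.69 and 9.94 in vehicle and 11.56, 12.73 and 11.98 in CCl4 livers. With vehicle array 3 close to CCl4 array 1, this difference of 1.81 missed the threshold (adjusted p = 0.0697), although a second probe set for Col1a2 was called at 1.65. Col3a1, the second fibrillar collagen of liver scars, rose 2.25-fold (adjusted p = 0.0332) and was called without CCl4 array 3 as well. The other 4 that rose were the type V chains Col5a1 (3.16-fold, with an uncalled log2 difference of 0.28 in its second probe set) and Col5a2 (2.43-fold), which regulate fibril width, and the beaded-filament chains Col6a2 (1.87-fold) and Col6a3 (2.24-fold). None of these 4 was called without CCl4 array 3, where their log2 differences were 0.86 to 1.55.

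Matrix proteins other than collagen included genes that were absent on every vehicle array and present in CCl4 livers. Of 31 listed, 28 were measured and 24 were present. Of those measured, 4 rose and none fell (1.09% and 0.529% of all genes), with a median of 0.90 (0.89 without CCl4 array 3). Postn, a matricellular protein that binds integrins and crosslinked collagen, read 5.65, 4.83 and 4.61 in vehicle livers, absent on all 3, and 8.13, 9.33 and 8.12 in CCl4 livers, present on all 3. Its rise was at least 11.3-fold (adjusted p = 0.00343), a ratio to vehicle signals that were not called present. Cthrc1, a secreted protein made by activated fibroblasts, was likewise absent in vehicle livers at 4.93, 4.01 and 5.05 and present in CCl4 livers at 7.65, 8.51 and 8.33. Its rise was also at least 11.3-fold (adjusted p = 0.00245), and both genes were called without each array in turn. Spp1, which encodes osteopontin, a phosphoprotein of ductular cells and macrophages, read 5.92, 6.42 and 6.26 in vehicle and 12.11, 9.90 and 11.58 in CCl4 livers. Estimated at 32.0-fold or more, this was the highest log2 difference of the named genes (5.00 ± 0.70 SE, adjusted p = 0.0247). Leaving out 1 array at a time gave 4.54 to 5.65. Without CCl4 array 3 it was 4.81 and just missed the threshold (adjusted p = 0.0532). Eln, the precursor of elastic fibres, was absent on all vehicle arrays and rose at least 5.85-fold (adjusted p = 0.0460), but not without CCl4 array 3 (adjusted p = 0.0779).

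Of 21 measured genes of collagen folding, secretion and crosslinking, 4 rose and none fell (1.09% and 0.529% of all genes). The list median was 0.44, or 0.35 without CCl4 array 3, where Pcolce of these 4 was not called (adjusted p = 0.107). They were Plod2 (2.66-fold), a lysyl hydroxylase that sets stable crosslinks; Pcolce (2.24-fold), which speeds removal of the procollagen tail; Serpinh1 (2.28-fold), the collagen chaperone; and Tmed3, a cargo receptor of the early secretory pathway. Tmed3 read 8.80, 8.25 and 8.96 in vehicle and 11.10, 10.68 and 10.49 in CCl4 livers. With no overlap and a spread of under 1 log2 unit in each group it rose 4.25-fold (adjusted p = 0.00133).

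Among 21 measured matrix proteases and inhibitors, 5 were called higher and none lower (1.09% and 0.529% of all genes). The list median was 0.84 (1.19 without CCl4 array 3). Timp1, an inhibitor of collagen-degrading metalloproteinases, read 8.71, 8.24 and 8.50 in vehicle and 10.17, 10.09 and 9.98 in CCl4 livers. It rose 3.03-fold (adjusted p = 0.00343), and Timp2 of the same family rose 2.08-fold. Mmp12, the macrophage elastase, read 6.60, 6.33 and 6.21 in vehicle and 10.77, 10.16 and 9.48 in CCl4 livers, where it was present on all 3. In vehicle livers it was present on 1 array only, so its 13.5-fold rise (adjusted p = 0.00813) rests mostly on vehicle values not called present. Mmp2, a gelatinase of stellate cells, rose 2.27-fold (adjusted p = 0.0406). Plaur, the urokinase receptor, was called but present on no array, so no fold is given. Its second probe set, also present on no array, differed by -1.49 and was not called. Inhibitors and proteases were thus both among the genes called higher.

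**Figure D2:**
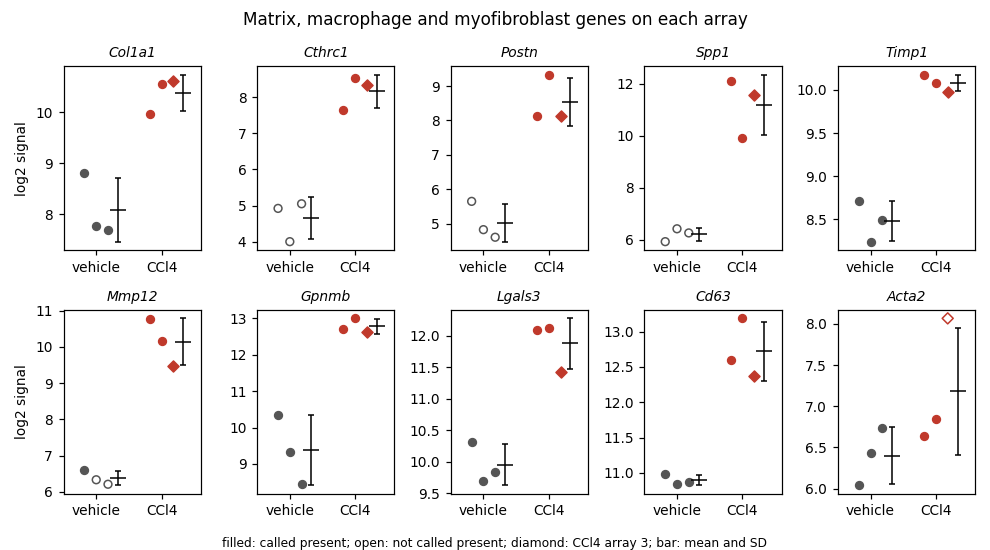
Log2 signal (y axis) of 10 genes on the 3 vehicle and 3 CCl4 arrays (x axis), with the mean and SD as a bar. The 9 genes from Col1a1 to Cd63 do not overlap between groups, and Acta2 does.

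Stellate cell and myofibroblast markers had a lower median difference than the listed collagens and other matrix proteins. Groups did not overlap for 9 of the 21 measured in the higher direction and 2 in the lower (12.5% and 8.53% of all genes). Of 21 measured, 18 were present, and the list median was 0.48 (0.34 without CCl4 array 3). Only Vim, an intermediate filament of mesenchymal cells, rose (1.75-fold, adjusted p = 0.0356, or 0.0564 without CCl4 array 3), where 1.09% of all genes rose. Acta2, the smooth muscle actin that defines myofibroblasts, read 6.04, 6.43 and 6.73 in vehicle and 6.64, 6.84 and 8.07 in CCl4 livers. The groups overlapped and the highest value was the only one not called present, on CCl4 array 3. The difference was 0.78 (adjusted p = 0.421), or 0.34 without that array. Lrat, which esterifies retinol in quiescent stellate cells, differed by 0.32 (adjusted p = 0.561). Pdgfrb, the receptor for platelet-derived growth factor on stellate cells, differed by 1.20 (adjusted p = 0.143), and Des, which encodes desmin, by 0.83 (adjusted p = 0.140). For Pdgfrb and Des the groups did not overlap, but neither was called. Rgs5, a pericyte regulator of G proteins, was nearest to a call after Vim at 1.18 (adjusted p = 0.0729).

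Signals that act on stellate cells were measured as well. Among 22 genes for TGF-beta ligands, receptors and targets, the median was 0.26 (0.15 without CCl4 array 3, -0.10 with each array centred on its median). The one call, where 1.62% of all genes were called, was Tgfbi, a secreted matrix protein, which fell (log2 difference -0.59, adjusted p = 0.0406). At -0.51 without CCl4 array 3, Tgfbi was under 1.5-fold and not called. Tgfb3, a ligand of the family, read 7.91, 7.27 and 6.47 in vehicle and 8.25, 9.11 and 8.60 in CCl4 livers. The groups did not overlap but the difference of 1.44 was not called (adjusted p = 0.0610). Tgfb1 and Ccl2 were present on no array and give no fold. Smad3, the transcription factor downstream of the receptor, differed by -0.08 (adjusted p = 0.908), or by 0.15 without CCl4 array 3. In the JAK and STAT pathway, Stat3 read 8.27, 8.23 and 8.46 in vehicle and 9.35, 9.25 and 9.85 in CCl4 livers. It rose 2.24-fold (adjusted p = 0.0216; 0.70 and not called in its second probe set) and was called without CCl4 array 3 too, whereas the kinase Jak2 differed by -0.12 (adjusted p = 0.889), or by 0.22 without that array. For 26 measured genes of PDGF, hedgehog, Wnt and other fibrogenic ligands the median was 0.52 (0.22 without CCl4 array 3). Of these, 2 rose and none fell (1.09% and 0.529% of all genes). They were Sfrp1, a secreted Wnt antagonist (2.95-fold), and Ednrb, an endothelin receptor (3.13-fold), which was not called without CCl4 array 3 (adjusted p = 0.0586). Kcnma1 and Kcnmb1, the alpha and beta subunits of the BK channel, were present on no array of either group by their brightest probe sets, so no fold can be given; neither of the 2 other Kcnma1 probe sets was present on more than 1 of the 6 arrays.

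Macrophage genes rose in part. Of 22 listed genes of scar macrophages and lysosomes, all were measured and 21 present. Of the 22, 7 were called higher and none lower (1.09% and 0.529% of all genes), with a median of 0.74 (0.73 without CCl4 array 3). Gpnmb, a membrane glycoprotein of lipid-laden macrophages, read 10.36, 9.32 and 8.44 in vehicle and 12.71, 12.998 and 12.62 in CCl4 livers, a rise of 10.6-fold (adjusted p = 0.00872). Lgals3, a galactoside-binding lectin that macrophages secrete, read 10.32, 9.69 and 9.84 in vehicle and 12.09, 12.13 and 11.42 in CCl4 livers. Its CCl4 values lay over 1 log2 unit above every vehicle value, with a rise of 3.81-fold (adjusted p = 0.00343). Cd63, a tetraspanin of lysosomes and secretory granules, read 10.98, 10.85 and 10.87 in vehicle and 12.60, 13.19 and 12.38 in CCl4 livers. Vehicle livers hardly varied, and Cd63 rose 3.54-fold (adjusted p = 0.00343). Lyz2, the myeloid lysozyme, rose 2.33-fold (adjusted p = 0.00813), and the lysosomal proteases Ctsd and Ctsz rose 1.71-fold and 1.84-fold, Ctsz not without CCl4 array 3 (adjusted p = 0.0879). Trem2, a lipid-sensing receptor of macrophages, was called with a difference of 3.67 but present on no array, so no fold is given. Summed over the list, the linear signal was 40210 to 53637 in vehicle and 64472 to 87718 in CCl4 livers.

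Markers of the resident macrophages of the liver did not separate the groups. All 9 measured Kupffer cell genes were present, and the sum of their linear signals was 17329 to 24832 in vehicle and 19128 to 22352 in CCl4 livers, groups that overlapped. Clec4f, the lectin that defines Kupffer cells, read 12.85, 12.50 and 12.71 in vehicle and 12.09, 12.56 and 12.07 in CCl4 livers, a difference of -0.45 (adjusted p = 0.191). Folr2, a folate receptor of macrophages, was the only call (1.62% of all genes were called), 2.03-fold higher (adjusted p = 0.0401), and not without CCl4 array 3 (adjusted p = 0.0649). Outside the lists, several further myeloid receptors were called. Clec7a, the beta-glucan receptor of myeloid cells, read 7.78, 6.47 and 5.89 in vehicle and 9.60, 9.97 and 9.72 in CCl4 livers and rose 8.28-fold (adjusted p = 0.00502). Lilrb4, an inhibitory leukocyte receptor, was absent in vehicle livers at 7.19, 6.13 and 4.59 and present in CCl4 livers at 9.82, 10.27 and 10.26, a rise of at least 17.7-fold (adjusted p = 0.00813). The receptor listed as RGD1561778, named Cd300c2 in current annotation, rose 3.18-fold (adjusted p = 0.00245).

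The gene listed as Mcpt2, a mast cell protease that current annotation names Mcpt1, had the smallest p of all genes. It was absent in vehicle livers at 2.60, 4.18 and 3.36, and in CCl4 livers read 7.86, 8.02 and 7.70, present on arrays 1 and 2. The rise was at least 18.2-fold (adjusted p = 0.00117). Mast cell proteases form a family of close copies, which 1 probe set may not separate. Of 12 measured mast cell genes 6 were present, and this was the one call (1.62% of all genes were called). The median of the list was 1.27 (1.26 without CCl4 array 3), and its summed linear signal was 743 to 833 in vehicle and 1302 to 2500 in CCl4 livers. Cpa3, the mast cell carboxypeptidase, read 7.15, 7.42 and 7.59 in vehicle and 8.07, 8.29 and 9.24 in CCl4 livers. The groups did not overlap but the difference of 1.15 was not called (adjusted p = 0.0910). Tpsab1, a tryptase that marks mast cells, was present on no array. No gene of T and NK cells (17 measured, 8 present), B and plasma cells (8 and 8), neutrophils (7 and 4) or MHC class II presentation (8 and 7) was called, beside 1.62% of all genes. Without CCl4 array 3, Gzma, a protease of T and NK cells, was called lower (log2 difference -1.67, adjusted p = 0.0234) and Igj, the joining chain of secreted antibodies, higher (1.28, adjusted p = 0.0183). The summed linear signal of B and plasma cell genes was 1040 to 1247 in vehicle and 1830 to 2293 in CCl4 livers.

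Calcium-binding annexins and S100 proteins had a median of 0.83 (0.90 without CCl4 array 3). Of 19 measured, 4 were called, all higher (1.09% of all genes were called higher). These were Anxa2 (2.56-fold), which organises membrane and actin; its binding partner S100a10 (2.29-fold); Anxa7 (2.46-fold) and S100a11 (1.77-fold). S100a10 read 9.81, 9.61 and 9.39 in vehicle and 10.45, 11.11 and 10.84 in CCl4 livers (adjusted p = 0.00872). All 4 were called without CCl4 array 3 too. No cholangiocyte gene was called among 15 measured, 9 of them present; Epcam, an adhesion molecule of bile duct cells, differed by 0.48 (adjusted p = 0.246). Nor was any of the 9 sinusoidal endothelial genes called, beside 1.62% of all genes.

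Genes of cholesterol synthesis rose at 8 steps. The list had 25 genes, 24 measured and all 24 present. Of these, 8 were called higher and none lower (1.09% and 0.529% of all genes), with a median of 0.85 (0.85 without CCl4 array 3). Groups did not overlap in the higher direction for 16 (12.5% of all genes). The 8 run through the pathway: Acat2 (3.09-fold) condenses acetyl-CoA, Pmvk (1.82-fold) and Mvd (2.96-fold) turn mevalonate into an isoprenoid unit, Idi1 (3.02-fold) isomerises it, Fdps (2.14-fold) and Fdft1 (1.81-fold) build squalene, and Cyp51 (2.33-fold) and Dhcr7 (2.76-fold) finish the sterol. Dhcr7 read 10.99, 10.08 and 10.65 in vehicle and 12.01, 12.13 and 11.99 in CCl4 livers (adjusted p = 0.00813), with CCl4 livers nearly identical, and was called without each array in turn. Mvd read 8.53, 7.63 and 8.28 in vehicle and 9.45, 9.91 and 9.78 in CCl4 livers (adjusted p = 0.0114). Without CCl4 array 3, Mvd, Fdps, Fdft1 and Dhcr7 were called and the other 4 were not. None of 19 fatty acid synthesis genes was called, beside 1.62% of all genes.

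Cell cycle genes had the highest median of the 40 lists, 1.38, but no call without CCl4 array 3. Of 40 measured genes 34 were present, and 5 were called higher and none lower. Once CCl4 array 3 was left out, the median was 0.97 and no longer the highest, with mast cell genes at 1.26. Groups did not overlap in the higher direction for 18 of the 40 (12.5% of all genes), and 1.09% of all genes were called higher. Cdk1, the kinase that starts mitosis, read 6.23, 4.80 and 5.68 in vehicle, present on none, and 6.96, 8.51 and 8.75 in CCl4 livers, present on all 3. The rise was at least 5.66-fold (adjusted p = 0.0425). Mki67, the proliferation marker, read 6.02, 5.36 and 6.14 in vehicle and 6.90, 8.27 and 8.50 in CCl4 livers, a rise of 4.15-fold (adjusted p = 0.0426). In both genes CCl4 array 1 lay between the vehicle livers and the other two. Ccna2, the cyclin of S phase and mitosis (9.28-fold), Tk1, which makes thymidylate for DNA (2.78-fold), and Prc1, a crosslinker of spindle microtubules, also rose. For Prc1 the plain ratio of signals was 4.01-fold, and only CCl4 array 2 called it present.

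**Figure D3:**
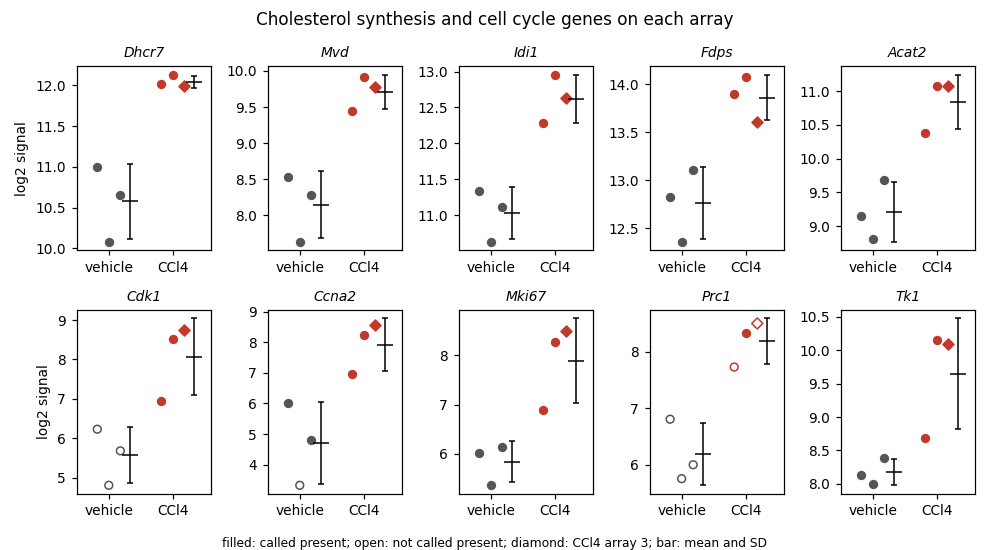
Log2 signal (y axis) of 5 cholesterol genes and 5 cell cycle genes on the 3 vehicle and 3 CCl4 arrays (x axis), with the mean and SD as a bar. CCl4 array 1 is the lowest of its group for all 5 cell cycle genes, and the groups overlap for none of the 10 genes.

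The promoters of cell cycle genes were searched for letters that many mitotic genes carry, the CCAAT box and the CHR letters TTTGAA. In RefSeq promoters of the GRCr8 assembly, from 250 bases before to 50 after the start, 33 of the 40 genes were matched by Entrez ID. CCAAT on either strand was found in 24 of them (72.7%) and in 37.7% of 27457 rat promoters. TTTGAA on either strand was found in 16 (48.5%) and in 18.1% of all. Cdk1, Prc1 and Mki67, which rose, are shown over the 200 bases before their start, 5′ to 3′ on the gene's strand, because their promoters held both, with either motif in capitals; a CCAAT box reads ATTGG where it lies on the other strand, and in Mki67 one such box and a TTTGAA share a base. Tk1, which also rose, held neither.
Cdk1 (chr20:19265093-19265292, + strand): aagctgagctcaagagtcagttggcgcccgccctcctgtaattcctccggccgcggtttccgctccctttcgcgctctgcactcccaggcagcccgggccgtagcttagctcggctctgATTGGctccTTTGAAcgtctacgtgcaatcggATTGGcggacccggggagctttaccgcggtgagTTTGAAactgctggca
Prc1 (chr1:143659281-143659480, + strand): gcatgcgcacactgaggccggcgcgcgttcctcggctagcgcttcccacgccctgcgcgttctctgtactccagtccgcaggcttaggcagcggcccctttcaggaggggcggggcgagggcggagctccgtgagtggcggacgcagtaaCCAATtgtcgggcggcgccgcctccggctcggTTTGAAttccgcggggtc
Mki67 (chr1:199952594-199952793, - strand): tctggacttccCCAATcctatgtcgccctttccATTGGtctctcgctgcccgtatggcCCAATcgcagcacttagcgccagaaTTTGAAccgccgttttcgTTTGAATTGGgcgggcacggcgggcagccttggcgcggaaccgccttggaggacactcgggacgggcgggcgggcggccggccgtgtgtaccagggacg
Among cholesterol genes, 17 promoters were matched and the sterol-response letters TCACNCCAC were found in 0 of them and in 1.13% of all promoters. At so low a share, 17 promoters would be likely to hold none. The search therefore cannot tell whether these genes lack sterol-response sites.

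Several interferon-stimulated genes fell. All 26 listed were measured and 25 present. Of the 26, 4 were called lower and none higher (0.529% and 1.09% of all genes). The median was -0.47, or -0.74 without CCl4 array 3, where 8 were called beside 1.42% of all genes. Groups did not overlap in the lower direction for 12 of the 26, while 8.53% of all genes did so. Mx2, an antiviral GTPase, read 9.94, 10.27 and 9.75 in vehicle and 8.02, 7.92 and 8.83 in CCl4 livers, and fell 3.32-fold (adjusted p = 0.0106), while its second, dimmer probe set differed by 0.63 and was not called. Oas1a, which makes the second messenger that triggers RNA degradation in the antiviral response, read 10.04, 10.89 and 10.05 in vehicle and 8.09, 8.18 and 8.93 in CCl4 livers, and fell 3.81-fold (adjusted p = 0.0145). In both, CCl4 array 3 was the highest of its group and still below every vehicle array. Ifit3, which blocks viral RNA translation, fell 2.76-fold (adjusted p = 0.0367), and Stat2, a transcription factor of the interferon response, fell 1.79-fold (adjusted p = 0.0247). Summed over the 26 genes the linear signal was 54553 to 56584 in vehicle and 38856 to 40911 in CCl4 livers. The T cell chemokine Cxcl9, which interferon gamma induces, read 9.81, 10.14 and 10.13 in vehicle and 7.71, 8.26 and 8.85 in CCl4 livers, and fell 3.37-fold (adjusted p = 0.0127). Ccl5, which attracts T cells and NK cells, fell 1.87-fold (adjusted p = 0.0363, or 0.0650 without CCl4 array 3). Of the 30 measured chemokines and receptors 4 were called (1.62% of all genes were), and the 2 others rose. They were Ccl21, which guides lymphocytes to lymphoid tissue (4.51-fold), and Cxcl16, a transmembrane chemokine (2.21-fold, adjusted p = 0.0592 without CCl4 array 3). Slfn3, a schlafen gene outside the list that current annotation names Slfn4, fell 2.77-fold (adjusted p = 0.00832), with -0.08 in its second probe set. Ifitm2, an interferon-induced membrane protein also outside the list, rose instead, 1.95-fold (adjusted p = 0.0282), and was called without CCl4 array 3.

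A pair of GAAA separated by any 2 bases, part of the element that interferon-activated factors bind, was searched after these values had been seen. It was found on either strand in 12 of the 18 interferon-stimulated promoters that were matched (66.7%) and in 3.77% of all promoters. Oas1a and Ifit3, which fell, are shown in the same form as above because they held it, in capitals; in Oas1a a pair of matches overlap, and in Ifit3 the match is on the other strand. Stat2, which also fell, held no match.
Oas1a (chr12:41330266-41330465, + strand): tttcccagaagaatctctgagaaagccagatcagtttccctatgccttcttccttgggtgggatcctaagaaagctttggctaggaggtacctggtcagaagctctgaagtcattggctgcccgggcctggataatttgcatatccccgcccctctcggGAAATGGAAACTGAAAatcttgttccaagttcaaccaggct
Ifit3 (chr1:241527126-241527325, + strand): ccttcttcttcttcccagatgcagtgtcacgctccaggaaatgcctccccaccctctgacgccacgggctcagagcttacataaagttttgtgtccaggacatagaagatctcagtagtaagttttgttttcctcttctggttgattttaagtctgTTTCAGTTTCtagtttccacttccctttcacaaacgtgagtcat

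Some genes of hepatocyte metabolism fell. For amino acid catabolism, all 29 measured genes were present, 2 fell and none rose (0.529% and 1.09% of all genes). The median was -0.48 (-0.29 without CCl4 array 3), and 16 genes had groups that did not overlap in the lower direction (8.53% of all genes). Dmgdh, a mitochondrial enzyme of choline breakdown, read 12.50, 12.60 and 12.69 in vehicle and 11.71, 11.71 and 11.33 in CCl4 livers. It fell 2.03-fold (adjusted p = 0.00746), the one fall that was called without each array in turn. Uroc1, which degrades histidine, read 13.21, 13.42 and 13.47 in vehicle and 12.44, 12.37 and 12.36 in CCl4 livers, and fell 1.97-fold (adjusted p = 0.0181). For fatty acid oxidation and ketogenesis 2 of 25 measured genes fell (0.529% of all genes did), with a median of -0.26 (-0.11 without CCl4 array 3). These were Cpt1a (2.09-fold), which admits fatty acids to mitochondria, and Acox3 (1.84-fold), an oxidase of peroxisomes. CCl4 array 3 was the lowest for Cpt1a, and the call was lost without it (adjusted p = 0.0633). Hacl1, an enzyme of peroxisomal alpha-oxidation outside the list, read 13.97, 13.80 and 13.78 in vehicle and 12.43, 12.79 and 12.11 in CCl4 livers, and fell 2.65-fold (adjusted p = 0.00941).

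Zonation, plasma protein and drug metabolism genes were mostly uncalled, as were all genes, of which 1.62% were called. Of 17 pericentral genes only Oat, an ornithine aminotransferase, fell (2.44-fold, adjusted p = 0.0493; 0.168 without CCl4 array 3), and of 17 periportal genes none was called although 16 had negative differences (median -0.47, or -0.24 without CCl4 array 3). Cyp2e1, which activates CCl4, read 14.87, 15.04 and 14.94 in vehicle and 14.85, 14.94 and 14.06 in CCl4 livers. The groups overlapped and the difference was -0.33 (adjusted p = 0.452), or -0.05 without CCl4 array 3. None of 23 cytochrome P450 genes and none of 16 acute phase genes was called. Among 25 plasma proteins the one call was Igfals, the subunit that keeps insulin-like growth factors in circulation, which fell 2.00-fold (adjusted p = 0.0321; 0.0528 without CCl4 array 3). The male-biased odorant-binding protein Obp3 had a still wider gap, 14.58, 14.80 and 14.79 in vehicle and 11.82, 6.30 and 11.55 in CCl4 livers, but with such spread its difference of -4.84 was not called (adjusted p = 0.226). Its probe set also matches related transcripts. Dbp, a transcription factor driven by the circadian clock, read 11.78, 11.92 and 11.66 in vehicle and 10.20, 10.84 and 9.28 in CCl4 livers, and fell 3.20-fold (adjusted p = 0.0211). It was the one call of 16 clock genes; the hour at which livers were taken is not given in the sources used here.

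**Figure D4:**
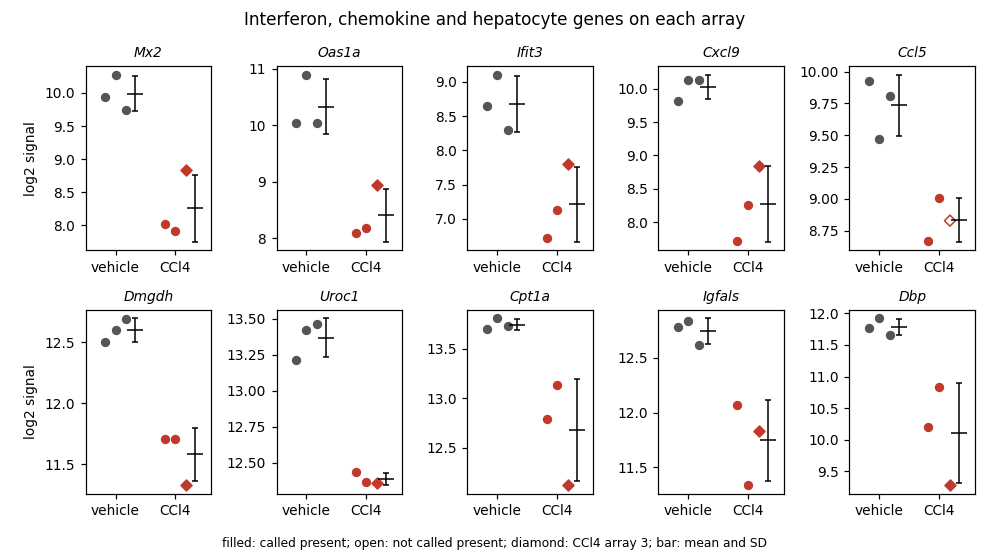
Log2 signal (y axis) of 10 genes that fell, on the 3 vehicle and 3 CCl4 arrays (x axis), with the mean and SD as a bar. For all 10 genes every CCl4 array lies below every vehicle array, and CCl4 array 3 is the highest of its group for Mx2, Oas1a, Ifit3 and Cxcl9 and the lowest for Dmgdh, Uroc1, Cpt1a and Dbp.

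Detoxifying and stress genes had one outlying member. Gsta3, a glutathione transferase with close paralogs that a probe set may not separate, read 6.51, 5.85 and 7.10 in vehicle and 10.11, 10.87 and 9.50 in CCl4 livers. It rose 12.8-fold (adjusted p = 0.00343), the only call among 23 conjugation enzymes, where 1.62% of all genes were called. The median of these enzymes was 0.05 (0.16 without CCl4 array 3, -0.31 with each array centred on its median). Of 20 measured NRF2 and antioxidant genes, Akr7a3, an aldehyde reductase, rose 2.30-fold (adjusted p = 0.0433; 0.0727 without CCl4 array 3); 10 had groups that did not overlap in the higher direction (12.5% of all genes). Hmox1, which degrades haem, differed by 0.97 (adjusted p = 0.0532). In the endoplasmic reticulum list 2 of 24 genes rose (1.09% of all genes did), the stress-induced chaperone cofactors Sdf2l1 (1.83-fold) and Creld2 (2.01-fold). Creld2 read 10.11, 10.17 and 10.42 in vehicle and 11.08, 11.38 and 11.26 in CCl4 livers (adjusted p = 0.00813).

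**Figure D5:**
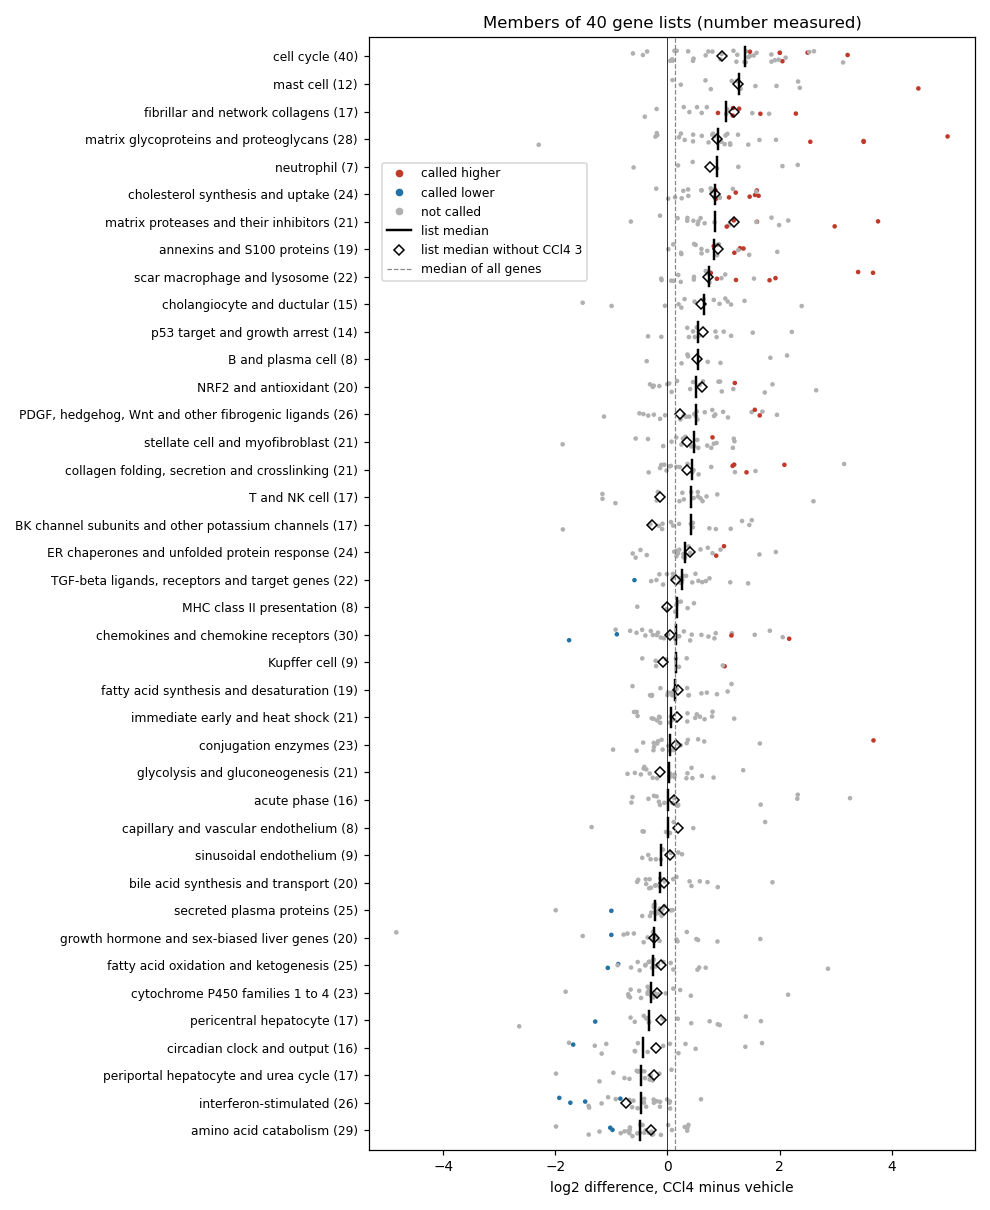
The log2 difference between CCl4 and vehicle (x axis) of each measured member of 40 gene lists (y axis), as one point per gene, with called genes coloured, the list median as a bar and the median without CCl4 array 3 as a diamond. Cell cycle genes have the highest median (1.38) and amino acid catabolism the lowest (-0.48), and the dashed line marks the median of all genes at 0.13. Without CCl4 array 3 the highest median is that of mast cell genes (1.26) and the lowest that of interferon-stimulated genes (-0.74).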

How the data were processed

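Liver RNA from male rats was measured on 9 one-colour Affymetrix rat expression arrays, 3 per group. The authors deposited log2 signals with a detection call for each probe set, and the submitters' processing notes name MAS5 and affy with no version; each array was scaled to a trimmed mean of 500, leaving out 2% at each end. No array intensity file was used. Of 31099 probe sets, 57 controls were left out. Symbols and Entrez IDs come from the deposited table, 20317 probe sets name 1 gene, and the genome build of its chromosomes is not given in the sources used here.

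Fits used limma 3.58.1 (R 4.3.3, statmod 1.5.0) over all 9 arrays with 3 group means and a robust prior spread that follows signal, since the median residual SD fell from 1.25 in the dimmest 20% of probe sets to 0.184 in the brightest 20%. A call needed an adjusted p (Benjamini-Hochberg, over 31042 probe sets) below 0.05 and a change of 1.5-fold or more, which is the fold in the methods. This fit was chosen with the counts of both fits known, and the lists, members and tests were chosen with earlier results of these data known. The script was tested on simulated data.

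Folds are given only for genes called present in both groups; where only 1 group was, "at least" marks a bound that takes, per array of the other group, the higher of its own signal and the lowest signal called present. That lowest signal lay between log2 2.31 and 3.53 on these arrays. For Postn, Cthrc1, Spp1, Lilrb4 and Tnfrsf9, among others, the bound therefore equals the plain ratio to undetected signal. It is not a cautious minimum, and it does not allow for the spread between samples. For Cela1 and Prc1, present on only 1 array of the higher group, the plain ratio is given instead. Marginal calls count as not present. A gene was named if it was among the 20 risen or 10 fallen genes with the smallest p, among the 4 members of a list with the smallest p, measured in this model by another assay, or a cell type marker; the remaining called members of the lists and a few others were named after their values were seen. Labels number the samples of a group without saying that each is a separate animal, so p-values measure the spread between samples, which may be technical. An exact permutation test of 3 against 3 arrays cannot go below a two-sided p of 0.1, and the number of arrays limits the precision.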

Additional observations from a re-analysis of the deposited data

How the results depend on the processing

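The 348 probe sets called became 0 with 1 prior spread for all probe sets (limma, smallest adjusted p 0.0686), 109 with only the 6 vehicle and CCl4 arrays, 223 with 50 added to each signal, 28 with each array centred on its median, 1431 with array weights (CCl4 array 3 weighted 0.193) and 221 at 2-fold. The methods' t-test called 1774 at its threshold with 1.5-fold and 0 after Benjamini-Hochberg adjustment. The cause was not tested. Leaving out 1 array at a time gave from 29 to 843: 211, 29 and 87 without vehicle replicate 3, 4 and 5, and 843, 136 and 313 without CCl4 replicate 1, 2 and 3. The count stayed within 1.5 times of 348 with quantile normalization (235), trend without the robust step (318), presence on at least 3 arrays (521) and without the dimmest 30% (455). The median difference over all probe sets was 0.18, -0.02 after quantile normalization and -0.18 after median centring, so directions of small medians depend on the scaling. For 99 named genes, 1606 alternative values were computed: 1095 kept direction and side of the threshold, 467 kept direction but lost the call, 28 gained one, and 7 moved by more than the spread when all probe sets of the gene were averaged. List medians changed sign in 49 of 720 alternatives. Among named genes whose difference the text prints, 3 that were not called reversed. Smad3 (-0.08) was 0.065 with array weights, 0.15 with CCl4 array 3 left out and presence on at least 3 arrays, 0.52 as the mean of its probe sets and -0.25 to 0.15 leaving out 1 array at a time. Jak2 (-0.12) was 0.19 and 0.22 under the first 2 of these and -0.35 to 0.22 leaving out 1 array. Lrat (0.32) was -0.039 with each array centred on its median. No paired analysis was possible because the 2 groups share only replicate number 3. Genes called present on few arrays are limited by signal over background.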

Other observations

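Other called genes outside the lists included several of the cytoskeleton and of membrane lipids. Tubb6, a tubulin of non-neural cells, read 6.54, 5.88 and 5.61 in vehicle and 8.30, 9.11 and 8.41 in CCl4 livers, and rose 6.06-fold (adjusted p = 0.00607), with 0.12 in its second probe set on the log2 scale. Myh10, a non-muscle myosin, rose 3.72-fold (adjusted p = 0.00813), and Tspo, the outer mitochondrial translocator protein, rose 2.23-fold (adjusted p = 0.00813). Acsl3, a ligase that activates fatty acids, rose 2.18-fold. Tnfrsf9, a costimulatory receptor of lymphocytes, was absent on all vehicle arrays and rose at least 7.47-fold (adjusted p = 0.00813). Among falls, the 3 other probe sets of RT1-S3, a rat MHC class Ib gene, were called along with its brightest, which fell 2.04-fold (adjusted p = 0.0194) and whose probe set matches related transcripts. Enpp2, which makes lysophosphatidic acid, fell 1.84-fold and Ugp2, which makes UDP-glucose, fell 2.01-fold.

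Cela1, a pancreatic-type elastase, read 8.34, 9.70 and 9.90 in vehicle livers and 4.47, 6.20 and 4.81 in CCl4 livers, where it was not called present. Its mean signal was 17.8-fold lower (adjusted p = 0.00806). This is a plain ratio of signals and not a bound, since only 1 vehicle array called it present. The acinar markers Prss1 and Cpa1 were present on none of the 6 arrays.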
